A study of Saccharomyces cerevisiae with 6 samples.

Results

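Budding yeast (Saccharomyces cerevisiae) kept for 2 h at 37°C was set against yeast grown at 30°C, the usual growth temperature of the species, across every gene of a total RNA count table. The comparison takes 4 of the 6 libraries in the table, 2 biological replicates at 37°C and 2 at 30°C, and all 6461 gene rows. Of these rows, 5181 held enough counts to be tested. Both groups have the strain background BY4741/2 and the genotype CBP80-PPX-PrA, SNAPf-YRA1, so the gene of the cap-binding protein Cbp80 and the gene of the mRNA export adaptor Yra1 each carry a tag in heated and unheated cells alike. The 37°C cells were grown in rich medium (YPD) at 25°C, mixed with pre-warmed medium, and cultured at 37°C until 2 h had passed. The 30°C cells were grown in YPD at 30°C throughout. The earlier growth at 25°C, the fresh medium, and the heat therefore change together and cannot be told apart. The remaining 2 libraries, from cells grown at 25°C, were not compared but entered the fit, and so the filter, the scaling, and the estimate of the spread. The study used these temperatures to ask how mRNA-protein particles adapt to growth conditions. Each library was made by 3′-Tag-seq (QuantSeq), in which oligo(dT) priming gives about 1 tag per polyadenylated RNA molecule near its 3′ end.

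A yeast cell moved to a higher temperature draws on several gene programs. The heat shock factor Hsf1 turns on chaperones that refold or hold damaged proteins, the paired factors Msn2 and Msn4 turn on a broad set of general stress genes for carbohydrate stores and redox balance, and the Rho1 and Slt2 pathway remodels the cell wall. Genes for making ribosomes are typically turned down early in the same response, and much of this is transient as cells adapt.

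The 37°C libraries held 842298 and 954950 counts in genes, and the 30°C libraries held 1006632 and 694502. The 25°C libraries held 184456 and 884443. The log2 CPM (counts scaled to an equal library size by TMM factors) of the replicates correlated across 5181 genes at r = 0.974 between the 37°C libraries and r = 0.904 between the 30°C libraries, and genes are not independent replicates. Between a 37°C and a 30°C library, r was 0.911 to 0.936. Each 30°C library was thus less like its own replicate than like either 37°C library. The first 30°C replicate stood apart: ribosomal protein genes took 11.6% and 12.3% of counts at 37°C, against 22.4% and 13.6% at 30°C. The markers of mating type a were present, with 135 and 170 counts of BAR1 at 37°C and 264 and 193 at 30°C, while MF(ALPHA)1, a pheromone gene of the other mating type, had at most 1 count and its receptor gene STE3 at most 5. SAG1, the agglutinin gene of the other mating type, nevertheless had 35 and 43 counts at 37°C and 20 and 34 at 30°C. URA3 and MET17 had no counts in any library, and LEU2 and LYS2 had at most 2, while HIS3 had 78 to 124 counts in the 4 libraries. Neither tagged gene passed a test. STO1, which encodes Cbp80, had 106 and 69 counts at 37°C and 101 and 133 at 30°C, and YRA1 had 60 and 76 counts at 37°C and 100 and 42 at 30°C. The groups overlapped in YRA1.

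Few genes differed clearly between the temperatures. The stress genes HSP26 and HSP12, the glycogen phosphorylase gene GPH1, the hexokinase gene HXK1, and the glucan synthase gene GSC2 were called higher at 37°C. So were BAG7, a regulator of Rho1, and BNA2, TPO2, and SNR4. The branched-chain amino acid genes LEU1 and BAT1 and the pheromone receptor gene STE2 were called lower. With edgeR's quasi-likelihood test over all 5181 genes, 0 genes (0%) passed an adjusted p of 0.05 together with a log2 fold change beyond 1 in either direction, and the smallest adjusted p was 0.185. At an unadjusted p under 0.05, edgeR had 241 genes on the higher side of 37°C (4.65%) and 125 on the lower side (2.41%). limma-voom likewise made 0 calls, with 243 and 122 genes at an unadjusted p under 0.05. DESeq2, the tool named for the study's own test, called 9 genes higher (0.146%) and 3 lower (0.0488%) of 6153 at the same thresholds. When DESeq2 was given the 4 libraries alone, it called 26 genes higher (0.527%) and 17 lower (0.344%) of 4936, and all 12 of the earlier calls were among them. A gene is written as called only where DESeq2 called it. In RNA from a whole culture, a change in the share of cells that express a gene and a change in RNA per cell cannot be told apart.

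**Figure D1:**
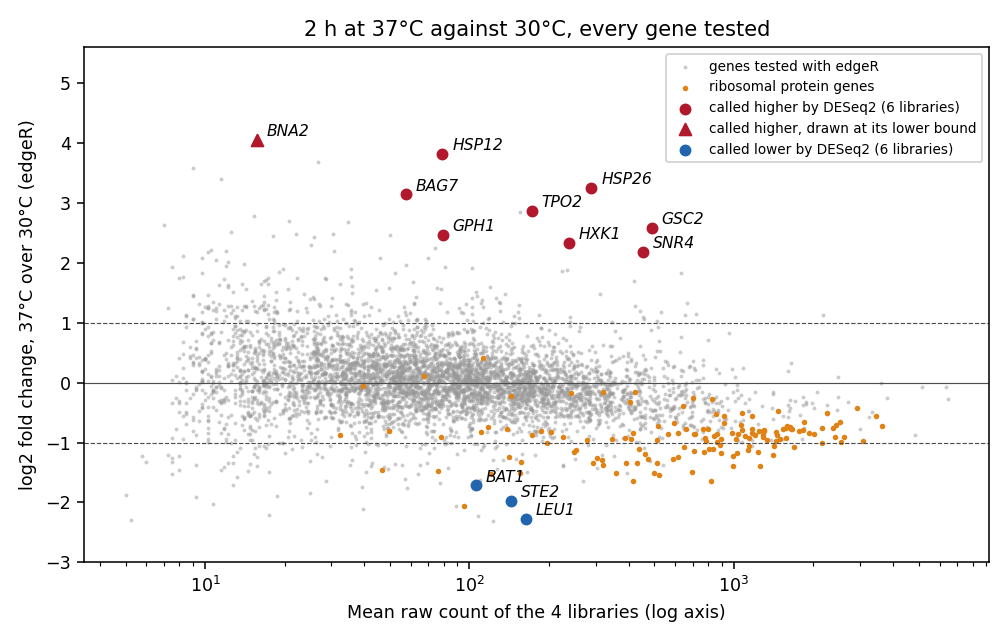
Log2 fold change of 37°C over 30°C (vertical axis, edgeR) against the mean raw count of the 4 libraries (horizontal log axis) for the 5181 genes tested, with dashed lines at 1 and −1. The 9 genes called higher and 3 called lower by DESeq2 are named. BNA2 is drawn at a nominal lower bound that leaves out the spread between libraries. The ribosomal protein genes (orange) lie mostly below 0 at the right of the plot.

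The plot of fold change against mean count shows how narrow the main body of genes was. The median size of a gene's log2 difference was 0.29 between the temperatures, 0.21 between the 37°C replicates, and 0.43 between the 30°C replicates. The first is a difference between means of 2 libraries and the others are between single libraries. The median log2 fold change over all genes was −0.01, and the median standard error was 0.40. Both 37°C libraries lay above both 30°C libraries in 1257 genes (24.3%) and below them in 1044 genes (20.2%). A log2 fold change above 1 was found in 241 genes (4.65%) and below −1 in 166 genes (3.2%). Scaling by total counts instead of TMM moved the median of all genes up by 0.24 on the log2 scale.

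HSP12 and HSP26 led the general stress genes. HSP26 (chrII:382030-382674, plus strand, R64), a small heat shock protein that holds unfolded proteins in large oligomers, had 407 and 659 counts at 37°C against 67 and 24 at 30°C. This came to 526 ± 130 CPM at 37°C and 54.8 ± 29.4 CPM at 30°C (SD, n = 2 each). Both heated libraries lay far above both unheated ones, at a log2 fold change of 3.25 (SE 0.45, edgeR) with a DESeq2 adjusted p of 7.8e-05. HSP12 (chrVI:107256-107585, plus strand), a small membrane-protecting protein of stressed cells, had 109 and 190 counts at 37°C against 16 and 1 at 30°C. The groups did not overlap, but the 30°C value rested on few counts. Its log2 fold change was 3.82 (SE 0.77, edgeR), with a DESeq2 adjusted p of 0.0148. Without the first 30°C replicate, the edgeR log2 fold change of HSP12 was 6.51 and that of HSP26 was 3.92. Without the second 30°C replicate, that of HSP12 was 3.02 and that of HSP26 was 2.79.

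Carbohydrate genes of the same program followed. HXK1 (chrVI:253592-255049, minus strand), the hexokinase of stressed or glucose-poor cells, had 360 and 460 counts at 37°C against 88 and 44 at 30°C, with a log2 fold change of 2.33 (SE 0.34, edgeR) and a DESeq2 adjusted p of 0.00236. GPH1 (chrXVI:861306-864014, plus strand), the phosphorylase that releases glucose from glycogen, had 106 and 172 counts at 37°C against 20 and 19 at 30°C, with a log2 fold change of 2.47 (SE 0.36, edgeR) and a DESeq2 adjusted p of 0.0145. In both genes the lower heated library was several times the higher unheated one. SPI1, a cell wall protein of the stress program, was called only in the fit of 4 libraries, with 88 and 166 counts at 37°C and 35 and 8 at 30°C (DESeq2 adjusted p = 0.0337). Its edgeR log2 fold change was 2.26, but 3.42 with the first 30°C replicate left out and 1.66 with the second left out. GAD1 (glutamate decarboxylase) and PHM8 (a nucleotide phosphatase) had log2 fold changes of 1.57 (SE 0.34) and 1.68 (SE 0.38) without a call.

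Over the whole list of 35 general stress genes, 27 were tested, with a median log2 fold change of 1.06 beside −0.01 over all genes. DESeq2 called 3 of them (background 0.146%), both heated libraries lay above both unheated ones in 16 (24.3% of all genes), and none showed the opposite order. The list took 0.431% and 0.531% of counts at 37°C against 0.190% and 0.156% at 30°C. Its median between replicates (first over second) was −0.25 at 37°C and 0.78 at 30°C, so the unheated replicates also differed in these genes. The members that were not tested had too few counts, so the tested ones do not stand for all members. Which members were tested depended in part on their 37°C counts, as in HSP12. No count of positive genes is therefore given, and the median and the order of the libraries are affected in the same way.

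**Figure D2:**
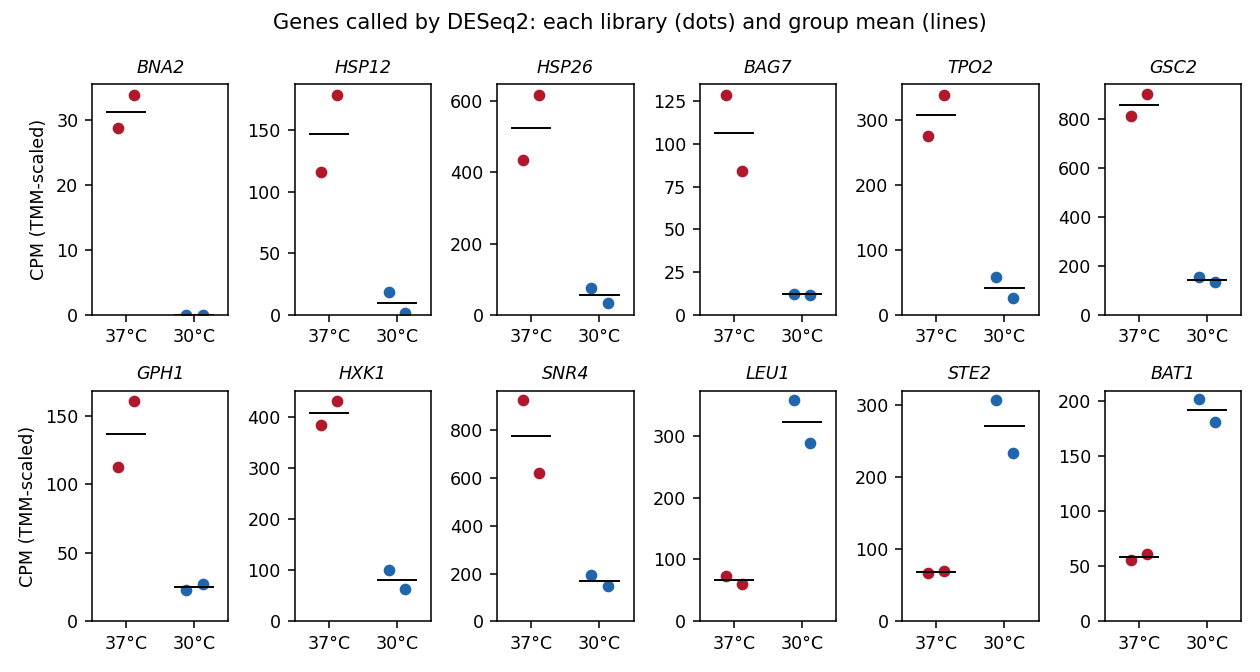
TMM-scaled CPM (vertical axes, each starting at 0) of the 12 genes called by DESeq2 in the fit of 6 libraries; each dot is 1 library and each line the mean of 2. In every panel the 37°C and 30°C dots are apart, with LEU1, STE2, and BAT1 lower at 37°C.

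The general stress factors Msn2 and Msn4 bind the stress response element (STRE), whose core is AGGGG. The sequence was searched on both strands in the 500 bases before the start codon of 5989 coding genes in the RefSeq sequence of build R64, windows that can run into a neighbouring gene. It was found in 34.1% of them, and at least 2 sites in 8.13%. It lay before 33 of the 35 general stress genes and 16 of 20 trehalose and glycogen genes. A match of 5 bases is common by itself and is not a binding site. The windows of HSP26 held 3 sites and those of HSP12 held 5, and some are printed here because both genes were called higher, with sites of other called genes beside them and with the core (or its reverse complement CCCCT) in capitals.
HSP26, chrII:381539-381568, plus strand: actccgtgtgtaCCCCTaactccgtgtgta
HSP26, chrII:381692-381721, plus strand: ggttattccctcCCCCTtatgcgtccaaaa
HSP12, chrVI:106809-106838, plus strand: tggcatctgttaAGGGGatatgttgcaact
HSP12, chrVI:106830-106859, plus strand: gttgcaacttgcAGGGGgcggcacaaaata
HSP12, chrVI:106867-106896, plus strand: aacgtagtaaagAGGGGaaaaggaaaagga
HXK1, chrVI:255369-255398, minus strand: catttttttttaAGGGGttgatgaaaagaa
GPH1, chrXVI:860937-860966, plus strand: aggaaataagtaAGGGGtggataattttcg
BAG7, chrXV:578114-578143, plus strand: aaaaatccttggAGGGGaggaccagcctca

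The share of tested genes with a log2 fold change above 1 differed with the number of these sites. It was 3.04% of 3319 genes with no site, 5.59% of 1289 genes with 1 site, 10.1% of 316 genes with 2 sites, and 18.3% of 93 genes with 3 or more. The median log2 fold change in the last group was only 0.17, so most genes with 3 or more sites differed little. GSC2, TPO2, and BNA2 (chrX:578860-580221, plus strand), which were called higher, had no such site in the window.

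**Figure D3:**
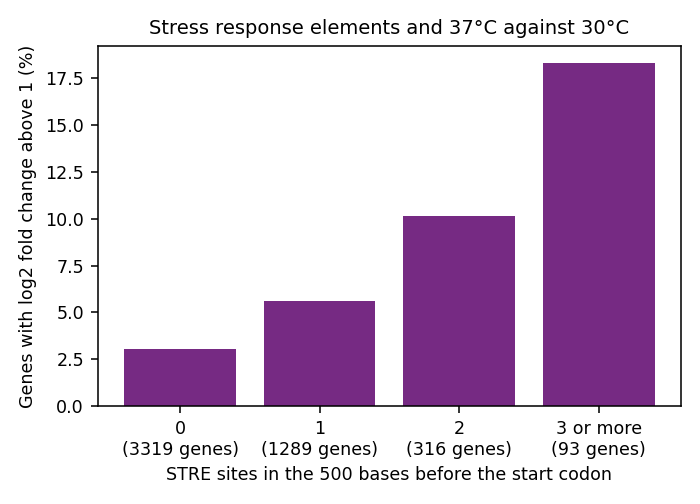
Share of tested genes with a log2 fold change above 1 at 37°C over 30°C (vertical axis, percent) by the number of STRE cores in the 500 bases before the start codon (horizontal axis, with the number of genes). The bars run from 3.04% with no site to 18.3% with 3 or more; they describe 1 comparison and carry no test.

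Reserve carbohydrates made a broader group. Of 20 genes for trehalose and glycogen, 19 were tested, 16 of them had a positive log2 fold change, and the median was 0.75. Both heated libraries were higher in 13 (24.3% of all genes) and lower in 2 (20.2% of all genes), and 1 gene, GPH1, was called (background 0.146%). GLC3, the glycogen branching enzyme, had 82 and 106 counts at 37°C against 30 and 29 at 30°C, a log2 fold change of 1.32 (SE 0.33). GSY2, the main glycogen synthase, had 621 and 716 counts at 37°C against 195 and 283 at 30°C, and NTH1, the neutral trehalase that breaks trehalose down, had 121 and 158 against 50 and 48. Genes of synthesis and of breakdown thus stood higher side by side.

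The chaperone genes listed under Hsf1 had no common direction. All 28 genes of the list were tested, with a median log2 fold change of 0.03. It was positive in 14 and negative in 14, with no call. In both heated libraries 11 genes were higher (24.3% of all genes) and 7 lower (20.2% of all genes). The list took 2.03% and 2.17% of counts at 37°C against 1.71% and 1.72% at 30°C. Outside the list, the Hsp70 gene SSA4 and the Hsp110 gene SSE2 had log2 fold changes of 1.09 (SE 0.44) and 1.28 (SE 0.36). The related genes SSA2 and SSE1 had −1.63 (SE 0.62) and −0.19 (SE 0.44). HSP82, the inducible Hsp90, had 3037 and 3384 counts at 37°C against 1134 and 1164 at 30°C, a log2 fold change of 1.13 (SE 0.41). AHA1, which speeds the Hsp90 ATPase, had 654 and 914 counts at 37°C against 302 and 246 at 30°C. UBI4, the polyubiquitin gene, had 393 and 344 counts at 37°C against 186 and 127 at 30°C. These 3 genes had no overlap between the temperatures, while others lay on the opposite side. BTN2, which sorts misfolded proteins into deposits, had 75 and 95 counts at 37°C against 198 and 87 at 30°C, where the second unheated library was low in raw counts but above both heated ones in CPM. MBF1, a transcriptional coactivator under Hsf1, had 16 and 26 counts at 37°C against 82 and 33 at 30°C. Without the first 30°C replicate, the log2 fold change of BTN2 was −0.57 and that of MBF1 was −1.19, against −1.04 and −1.74 with all libraries.

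The heat shock element that Hsf1 binds was searched on both strands of the same windows as GAA, TTC, and GAA, with 2 bases of any kind between neighbours. It lay before 1.49% of all genes and before 13 of the 28 genes of the list (46.4%). Those 13 had a median log2 fold change of 0.36, while all 80 tested genes with the element had one of −0.15. Both directions occurred among the genes with the element. BTN2, with lower counts at 37°C, and HSP78, a mitochondrial disaggregase picked after its value was seen (log2 fold change 0.82), carry overlapping copies. They are shown for that contrast, with the fixed bases in capitals.
BTN2, chrVII:772102-772131, plus strand: acttttttTTCtaGAAagTTCcggaaaatt
HSP78, chrIV:974464-974493, minus strand: attttccaGAAtgTTCtaGAAgtgttcttt

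The cell wall gave some of the clearest single genes. GSC2 (chrVII:548264-553951, plus strand), which encodes the alternative catalytic subunit of glucan synthase, had 765 and 964 counts at 37°C against 137 and 94 at 30°C. The level was 860 ± 62.8 CPM at 37°C and 144 ± 15.2 CPM at 30°C (SD, n = 2 each), a log2 fold change of 2.58 (SE 0.39, edgeR) with a DESeq2 adjusted p of 7.8e-05. Replicates were close at both temperatures. BAG7 (chrXV:578564-579793, plus strand), a GTPase-activating protein for Rho1, had 121 and 90 counts at 37°C against 11 and 8 at 30°C, a log2 fold change of 3.14 (SE 0.42, edgeR) with a DESeq2 adjusted p of 0.00307. YPS3, a wall-anchored aspartic protease, had 395 and 343 counts at 37°C against 78 and 82 at 30°C, and was called in the fit of 4 libraries (DESeq2 adjusted p = 0.00174). NCW2, a wall glycoprotein named after its value was seen, was called in the same fit with 1049 and 968 counts at 37°C against 412 and 238 at 30°C.

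Most of the wall program was more even. Of 31 targets of the cell wall integrity pathway, 19 had a positive log2 fold change, the median was 0.27, and 13 were higher (24.3% of all genes) and 6 lower (20.2% of all genes) in both heated libraries. The median was 0.05 without the second 37°C replicate and 0.46 without the first 30°C replicate. PST1, a wall protein, had a log2 fold change of 1.48 (SE 0.37), and CWP1, a wall mannoprotein, one of 1.44 (SE 0.48), with no call. The 23 tested genes of Rho1 and the kinase cascade had a median of 0.14, which ranged from −0.08 to 0.40 as single libraries were left out. LRG1, another GTPase-activating protein for Rho1, had 54 and 50 counts at 37°C against 82 and 85 at 30°C, the opposite side from BAG7. In the calcium branch, 9 of 15 genes were positive with a median of 0.40. CMK2, a calmodulin-dependent kinase under calcineurin, had 607 and 703 counts at 37°C against 295 and 167 at 30°C, and the vacuolar calcium pump gene PMC1 had 757 and 718 against 296 and 275.

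**Figure D4:**
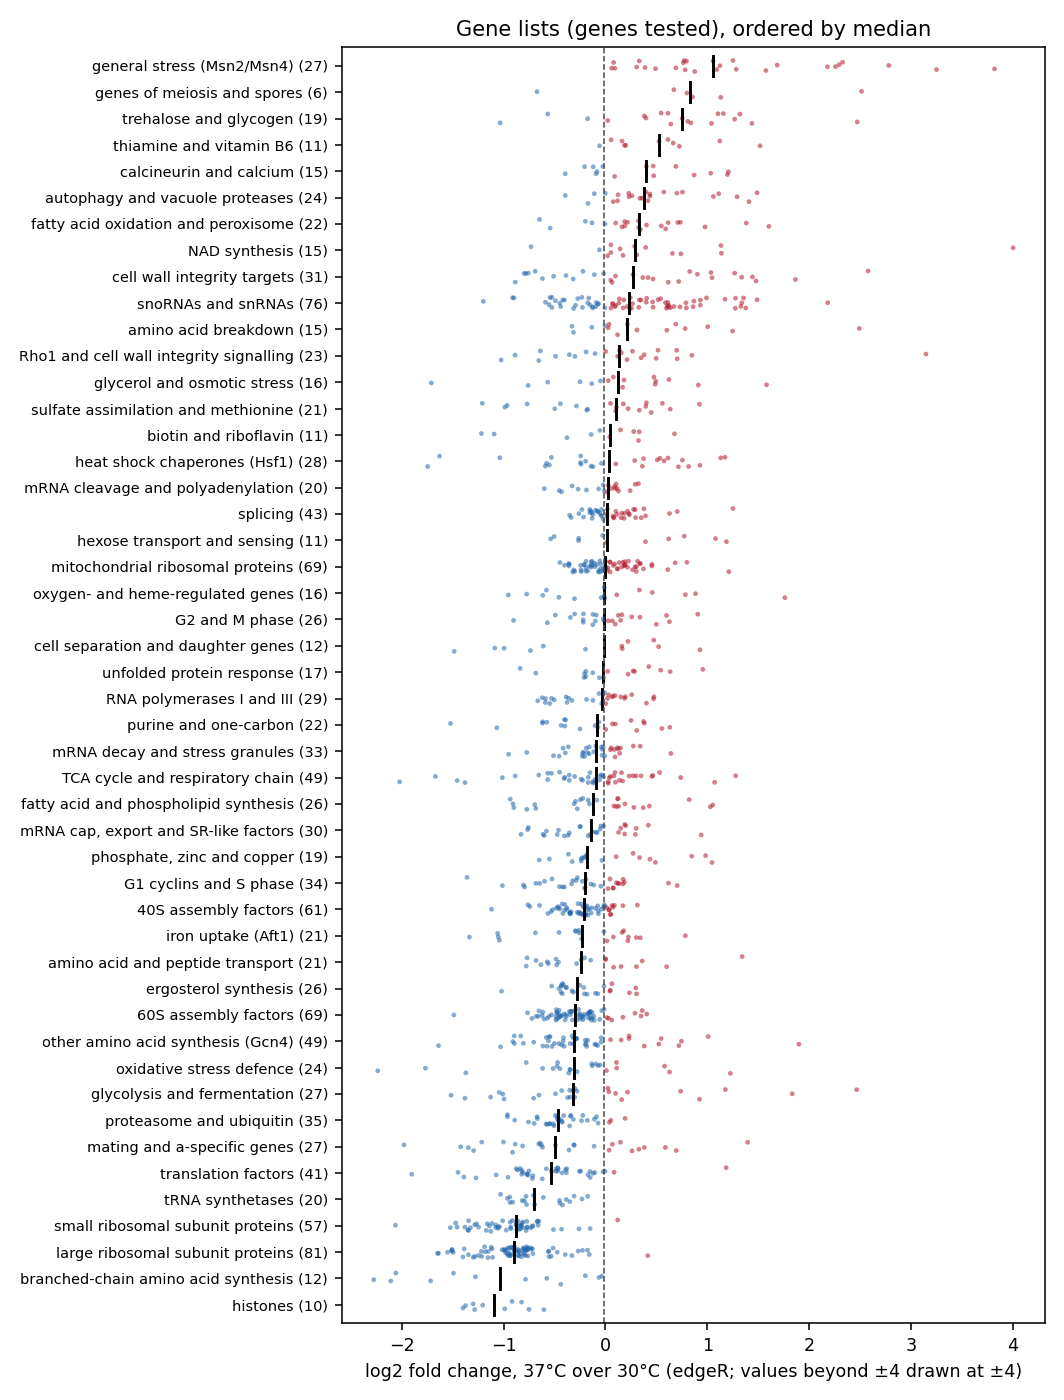
Log2 fold change of 37°C over 30°C (horizontal axis, edgeR) for the tested genes of each list with at least 5 of them, strain markers left out, ordered by the list's median (black bars); each dot is 1 gene, red above 0 and blue below, and the dashed line is the median of all genes. General stress genes lie highest with a median of 1.06, and histones lie lowest with −1.10.

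The lowest lists in the plot of gene lists were histones, branched-chain amino acid synthesis, and ribosomal proteins. Of these, the branched-chain genes differed least between the 30°C replicates (median 0.23, log2, first over second) and most between the 37°C replicates (median −0.22). LEU1 (chrVII:476313-478652, minus strand), the isopropylmalate isomerase of leucine synthesis, had 69 and 64 counts at 37°C against 317 and 204 at 30°C. It stood at 66.8 ± 9.56 CPM at 37°C and 323 ± 48.6 CPM at 30°C (SD, n = 2 each), a log2 fold change of −2.27 (SE 0.31, edgeR) with a DESeq2 adjusted p of 2.1e-04. BAT1 (chrVIII:517532-518713, plus strand), the mitochondrial branched-chain aminotransferase, had 52 and 65 counts at 37°C against 179 and 128 at 30°C, a log2 fold change of −1.72 (SE 0.28, edgeR) with a DESeq2 adjusted p of 0.0326. In each gene the lower unheated library held more counts than both heated libraries together. ILV2 (acetolactate synthase), ILV3 (dihydroxyacid dehydratase), and OAC1 (a mitochondrial carrier that exports an intermediate of leucine synthesis) were called lower in the fit of 4 libraries. ILV3 had 14 and 22 counts at 37°C against 61 and 61 at 30°C.

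All 12 branched-chain genes were tested, and all 12 had a negative log2 fold change, with a median of −1.03 beside −0.01 over all genes. DESeq2 called 2 lower with 6 libraries (background 0.0488%), 6 lay below −1, and 7 were lower in both heated libraries (20.2% of all genes) with none the other way. The list took 0.144% and 0.163% of counts at 37°C against 0.263% and 0.235% at 30°C. Its median stayed between −1.26 and −0.94 as each library was left out. At 25°C, LEU1 had 236 counts in the deeper library, between the raw counts of the 30°C libraries. LEU2 had at most 2 counts in every library, so the step it encodes could not be compared.

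Leu3, the regulator of this pathway, binds a pair of CCGG a set distance apart, searched on both strands as CCGG, 2 bases of any kind, and CCGG. The letters are rare, and lay before 16 of 5989 genes (0.267%), 4 of which belong to the branched-chain list. Of the 16, 15 were tested, 11 had a negative and 4 a positive log2 fold change, and the median was −0.68. The 5 lowest were LEU1, BAT1, GDH1, ILV2, and ILV5, and their sites are printed for that reason, with the fixed bases in capitals. GDH1, the glutamate dehydrogenase that assimilates ammonium, had 128 and 173 counts at 37°C against 557 and 213 at 30°C and was called lower in the fit of 4 libraries (DESeq2 adjusted p = 0.0286). Its edgeR log2 fold change was −1.64, and −1.04 without the first 30°C replicate. The 4 positive genes had log2 fold changes of 0.13 to 0.44.
LEU1, chrVII:478850-478879, minus strand: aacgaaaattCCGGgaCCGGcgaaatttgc
BAT1, chrVIII:517375-517404, plus strand: attgtgtttgCCGGtaCCGGcctttaagct
GDH1, chrXV:1043427-1043456, minus strand: aaccaatgcgCCGGaaCCGGcccatgcatt
ILV2, chrXIII:483606-483635, plus strand: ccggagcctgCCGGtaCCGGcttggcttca
ILV5, chrXII:839611-839640, minus strand: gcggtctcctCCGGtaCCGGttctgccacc

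Other amino acid genes were less uniform. Of 49 tested synthesis genes grouped under the regulator Gcn4, 38 were negative, with a median of −0.31. Their extremes were ARG1, the last-but-one enzyme of arginine synthesis, with 46 and 72 counts at 37°C against 16 and 9 at 30°C, and GDH1 on the low side. The Gcn4 core TGACTCA lay before 4.01% of all genes, and genes with it had a median log2 fold change of −0.05. It lay before 23 of the 51 genes of the Gcn4 list, and the tested ones had a median of −0.29. In the branched-chain list it lay before 8 of 12 genes (median −1.03), more than the 4 with the Leu3 letters. LEU1 and BAT1 carry both, so the 2 kinds of site cannot be told apart in them. In the list of amino acid breakdown, PUT1, the proline oxidase, had 52 and 55 counts at 37°C against 9 and 6 at 30°C, with a log2 fold change of 2.49 (SE 0.42) and a call in the fit of 4 libraries (DESeq2 adjusted p = 0.0286).

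BNA2 (chrX:578860-580221, plus strand), which encodes the first enzyme of NAD synthesis from tryptophan, had 27 and 36 counts at 37°C and 0 in both 30°C libraries. Setting the unheated group at 3 counts over both libraries (1.88 CPM) puts the 37°C mean of BNA2 at 16.6 times that level. This is a nominal bound, since the spread between libraries does not enter it. DESeq2 called BNA2 with an adjusted p of 0.0148. It had 1 and 3 counts at 25°C, and it overlaps the dubious gene YJR079W on the same strand. Later enzymes of the pathway differed less, with BNA1 at 255 and 282 counts at 37°C against 103 and 90 at 30°C, and BNA5 at 72 and 97 against 42 and 20. BNA2 was tested only because of its 37°C counts, so no count of positive genes is given for NAD synthesis. Of the 15 tested genes, 4 were higher in both heated libraries (24.3% of all genes), none was lower in both, and 11 overlapped. Their median was 0.29. The median was 0.10 without the second 37°C replicate and 0.87 without the first 30°C replicate.

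TPO2 (chrVII:763762-765606, minus strand), a plasma membrane exporter of polyamines, had 259 and 362 counts at 37°C against 51 and 18 at 30°C, a log2 fold change of 2.87 (SE 0.56, edgeR) with a DESeq2 adjusted p of 0.0145. Without the first 30°C replicate its edgeR log2 fold change was 3.56, and without the second it was 2.41. SNR4 (chrV:424698-424883, plus strand), a small nucleolar RNA, had 869 and 665 counts at 37°C against 172 and 104 at 30°C, a log2 fold change of 2.18 (SE 0.37, edgeR) with a DESeq2 adjusted p of 0.00307. Mature small nucleolar RNAs carry no poly(A) tail, so a method primed with oligo(dT) reads only forms it can prime. Of 76 tested small nucleolar and spliceosomal RNAs, 33 were higher (24.3% of all genes) and 5 lower (20.2% of all genes) in both heated libraries. Their median was 0.23, and 0.09 without the first 37°C replicate. SNR17A, a U3 RNA, had 573 and 399 counts at 37°C against 127 and 147 at 30°C. SNR8 lay on the other side, with 112 and 111 counts at 37°C against 219 and 188 at 30°C.

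STE2 (chrVI:82580-83875, plus strand), the receptor for alpha-factor in mating type a cells, had 63 and 75 counts at 37°C against 273 and 165 at 30°C. It stood at 68.7 ± 2.26 CPM at 37°C and 271 ± 52.5 CPM at 30°C (SD, n = 2 each), a log2 fold change of −1.98 (SE 0.35, edgeR) with a DESeq2 adjusted p of 0.0145. The heated libraries were nearly equal and both were below the unheated ones. SST2, which shuts off the receptor's G protein, had 41 and 50 counts at 37°C against 109 and 76 at 30°C, and FAR1, which arrests the cycle in response to pheromone, had 246 and 206 against 352 and 466. FUS2, a cell fusion gene, had 37 and 42 counts at 37°C against 16 and 8 at 30°C, the opposite order. The 27 tested mating genes had a median of −0.49, with 18 negative, and it was −0.17 without the first 30°C replicate. The pheromone genes MFA1 and MFA2 could not be placed: MFA2 had 122 and 251 counts at 37°C, between the 759 and 86 at 30°C. The pheromone response element TGAAACA, searched on both strands, lay before 21 of 29 mating genes and 12.02% of all genes. STE2 holds a pair of copies, shown with the element in capitals because it is the mating gene that was called.
STE2, chrVI:82246-82275, plus strand: ctgctttgcaaTGAAACAatagtatccgct
STE2, chrVI:82372-82401, plus strand: taagtacatgaTGAAACAcatatgaagaaa

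Ribosomal protein genes formed the broadest low group, and the one most tied to a single library. Of 81 large-subunit genes, 80 had a negative log2 fold change with a median of −0.90, and of 57 small-subunit genes, 56 were negative with a median of −0.88. Both heated libraries were lower than both unheated ones in 41 and 33 of them (20.2% of all genes), and DESeq2 called 4 and 3 lower in the fit of 4 libraries (background 0.344%). Yet the unheated replicates differed by a median of 0.93 for the large and 1.15 for the small subunit (log2, first over second), more than the temperatures did. The medians were −0.13 and −0.24 when the first 30°C replicate was left out, and −1.26 and −1.33 when the second was. Some genes were less tied to it. RPS8B had 317 and 358 counts at 37°C against 826 and 551 at 30°C, a log2 fold change of −1.35 (SE 0.38), and was called in the fit of 4 libraries (DESeq2 adjusted p = 0.0102). RPL15A had 323 and 335 counts at 37°C against 638 and 550 at 30°C, with a DESeq2 adjusted p of 0.0338 in that fit. By contrast RPS26B had 36 and 48 counts at 37°C against 260 and 38 at 30°C. Most of these genes come in near-identical pairs, and reads that fit both copies were left out of the counts, so the level of a single copy is uncertain.

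**Figure D5:**
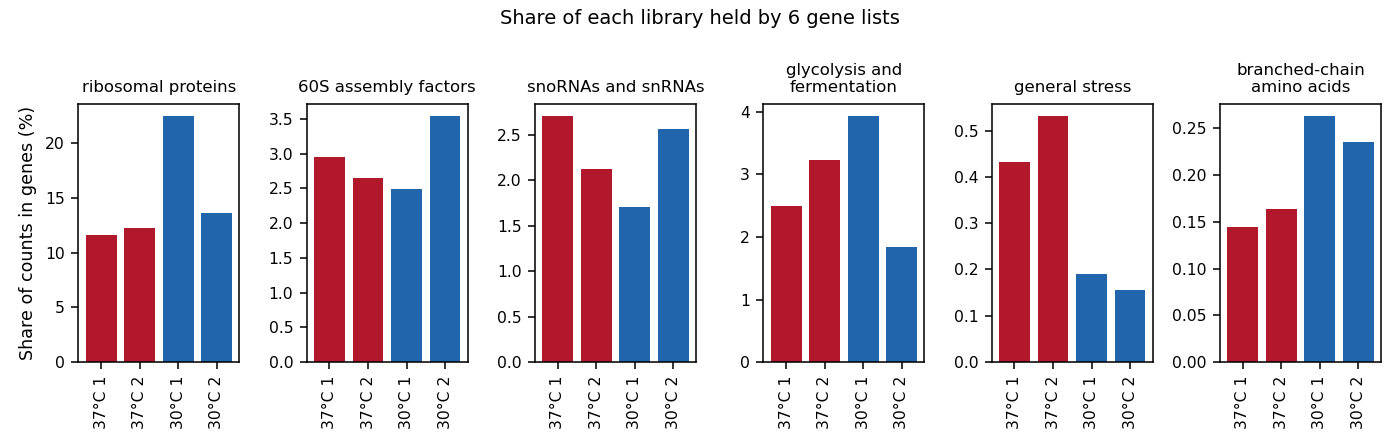
Share of the counts in genes (vertical axes, percent, each starting at 0) held by 6 gene lists in each 37°C (red) and 30°C (blue) library. Ribosomal proteins took 22.4% in the first 30°C replicate against 11.6% to 13.6% in the other 3 libraries, whereas general stress and branched-chain genes separate the temperatures in both replicates.

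Other translation genes were also low, and their medians moved less with that library. All 20 tRNA synthetase genes were negative, with a median of −0.70 and 13 lower in both heated libraries (20.2% of all genes), and the median was −0.42 without the first 30°C replicate. ILS1, the isoleucine enzyme, had 1409 and 1474 counts at 37°C against 2288 and 2075 at 30°C. Translation factors had a median of −0.53 with 39 of 41 negative, and took 2.75% of counts in each 37°C library against 3.46% and 3.49% at 30°C. HYP2, which encodes eIF5A, had 1070 and 1126 counts at 37°C against 1647 and 1699 at 30°C. HEF3, the little-used copy of elongation factor 3, had 36 and 36 counts at 37°C against 13 and 12 at 30°C, the opposite order. Factors that assemble the 60S subunit had a median of −0.30 and those of the 40S subunit −0.21, while mitochondrial ribosomal proteins had a median of 0.00.

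The histone list, core genes together with the variant gene HTZ1 and the linker gene HHO1, had a median of −1.10. All 10 were negative, and 8 were lower in both heated libraries (20.2% of all genes). HTA2, a gene for histone H2A, had 123 and 168 counts at 37°C against 361 and 250 at 30°C, and was called lower in the fit of 4 libraries (DESeq2 adjusted p = 0.0177). The list's median was −0.53 without the first 30°C replicate, and the unheated replicates differed by a median of 0.95 in these genes. RNR1, the large subunit of ribonucleotide reductase, had 28 and 41 counts at 37°C against 77 and 63 at 30°C. The list of G1 and S-phase genes, which includes RNR1, had a median of −0.20 over 34 tested genes, so RNR1 and the histone genes were not matched by the whole list.

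Protein turnover split by route. Of 35 proteasome and ubiquitin genes, 32 were negative with a median of −0.46, and 23 were lower in both heated libraries (20.2% of all genes) with none higher. The polyubiquitin gene UBI4 was grouped with the Hsf1 genes instead. It went the other way, with 393 and 344 counts at 37°C against 186 and 127 at 30°C. RPN3, a lid subunit of the regulatory particle, had 125 and 127 counts at 37°C against 148 and 230 at 30°C. In contrast, 20 of 24 genes of autophagy and vacuolar proteases were positive with a median of 0.38, and 12 were higher in both heated libraries (24.3% of all genes). APE1, a vacuolar aminopeptidase, had 146 and 241 counts at 37°C against 90 and 29 at 30°C, and PBI2, an inhibitor of a vacuolar protease, had 43 and 62 against 21 and 13. No gene of either list was called.

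Redox and respiration showed single genes more than groups. YHB1, the flavohemoglobin that detoxifies nitric oxide, had 51 and 41 counts at 37°C against 152 and 188 at 30°C, and was called lower in the fit of 4 libraries (log2 fold change −2.23, SE 0.49, edgeR; DESeq2 adjusted p = 2.9e-04). MDH2, the cytosolic malate dehydrogenase, had 41 and 48 counts at 37°C against 97 and 123 at 30°C and was called in the same fit (DESeq2 adjusted p = 0.0337). IDH2, a subunit of isocitrate dehydrogenase, had 40 and 44 counts at 37°C against 113 and 64 at 30°C. The oxidative defence list had a median of −0.31, with 18 of 24 negative, and the TCA cycle and respiratory chain one of −0.10 over 49 genes. TRX1, a thioredoxin, showed how far 1 library could carry a value, with 117 and 165 counts at 37°C against 534 and 84 at 30°C.

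Glycolysis held genes of both signs. TDH1, a minor glyceraldehyde-3-phosphate dehydrogenase, had 753 and 1302 counts at 37°C against 366 and 109 at 30°C and was called in the fit of 4 libraries (DESeq2 adjusted p = 0.0374). Its edgeR log2 fold change was 1.83, and 2.68 without the first 30°C replicate. GPM2, a minor homolog of phosphoglycerate mutase, had 69 and 106 counts at 37°C against 16 and 9 at 30°C (DESeq2 adjusted p = 0.00553 in that fit). CDC19, the main pyruvate kinase, had 190 and 234 counts at 37°C against 397 and 298 at 30°C, and TPI1, triose-phosphate isomerase, had 262 and 205 against 805 and 310. The list's median was −0.32, but 0.30 with the first 30°C replicate left out and −0.73 with the second left out, so it had no fixed sign. Reads shared by the TDH copies were left out of the counts.

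Metabolite supply and lipid groups lay on both sides. The thiamine and vitamin B6 list had a median of 0.53 over 11 tested of 22 genes, and fatty acid oxidation 0.32 over 22 of 31. Which of these genes were tested depended in part on their 37°C counts. An example is THI21, with 22 and 18 counts at 37°C against 6 and 5 at 30°C. No count of positive genes is therefore given, and the medians do not stand for the whole lists. The median was −0.28 over 26 genes of ergosterol synthesis, −0.23 over 21 of iron uptake, and −0.02 over 17 of the unfolded protein response. OLE1, the fatty acid desaturase, had 1376 and 1272 counts at 37°C against 585 and 597 at 30°C, a log2 fold change of 0.82 (SE 0.36) with both heated libraries higher. GPD2, a glycerol-3-phosphate dehydrogenase, had 10 and 4 counts at 37°C against 18 and 19 at 30°C. Factors of the mRNA cap, export, and packaging had a median of −0.14 over 30 genes, splicing genes 0.02 over 43, and cleavage and polyadenylation genes 0.02 over 20. None of these lists held a called gene. PAB1, the poly(A)-binding protein, had 122 and 174 counts at 37°C against 260 and 161 at 30°C, and SUB2, a helicase of the export machinery, had 764 and 886 against 1420 and 832.

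Of the 12 genes with the smallest edgeR p in each direction, a few belong to no list. DFP3, a membrane protein of the DUP240 family, had 41 and 49 counts at 37°C against 8 and 5 at 30°C. The small open reading frame YPR145C-A had 62 and 62 counts at 37°C against 7 and 8 at 30°C and was called in the fit of 4 libraries (DESeq2 adjusted p = 0.00928). YER145C-A had 30 and 33 counts at 37°C against 5 and 4 at 30°C, but overlaps LSM5 on the other strand, and no source used here says whether strand was used in counting. Among the lower genes, RPI1, a putative regulator linked to Ras signalling and the cell wall, had 27 and 40 counts at 37°C against 87 and 74 at 30°C. YLR256W-A, the Gag gene of a Ty1 element with near-identical copies elsewhere, had 6 and 9 counts at 37°C against 24 and 31 at 30°C.

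The 26 genes called higher in the fit of 4 libraries include 12 in no list, and some were picked for naming after their values were seen. GSP2, the minor copy of the nuclear transport GTPase Ran, had 174 and 205 counts at 37°C against 61 and 39 at 30°C, a log2 fold change of 1.60 (SE 0.32). PUG1, a plasma membrane carrier of porphyrins and heme, had 80 and 74 counts at 37°C against 17 and 12 at 30°C. GYP7, which switches off a Rab GTPase of the vacuole, had 81 and 111 counts at 37°C against 25 and 14 at 30°C. GPG1, a gene linked to G protein signalling, had 34 and 67 counts at 37°C against 5 and 1 at 30°C, a log2 fold change of 3.68 that rests on few unheated counts. MCH5, the riboflavin transporter, had 370 and 394 counts at 37°C against 134 and 39 at 30°C. Heated replicates of MCH5 were close and unheated ones were not, and its log2 fold change of 1.88 was 2.76 without the first 30°C replicate. Of the 17 genes called lower in that fit, all were in a list: 7 ribosomal protein genes, 5 branched-chain genes, GDH1, HTA2, MDH2, STE2, and YHB1.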

How the data were processed

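Total RNA was measured in 6 libraries, 2 biological replicates at each of 3 temperatures. The authors mapped the reads to build R64 and counted them per gene, and deposited raw counts, which are analysed here. A second deposited table of normalized values was not used here. The submitters' processing notes list STAR 2.7.10a and HTSeq 2.0.2, with UMI-tools 1.0.1 and DESeq2 1.38.2. Use of molecular identifiers in these libraries and the strand mode of counting are stated by no source used here. Reads in no annotated gene were 41.1% to 47.9% of a library and reads mapping to several places 7.81% to 14.1%, so genes with close copies are uncertain. The 5 summary rows were left out. Of 6461 gene rows, 6458 matched the RefSeq annotation.

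Genes kept by filterByExpr (5181) were scaled by TMM (factors 0.883 to 1.12) and fitted with edgeR 4.0.16 in R 4.3.3 by its quasi-likelihood F test, with temperature as the only factor and the contrast 37°C minus 30°C. The 3 groups share 1 estimate of the spread. Adjusted p is from Benjamini-Hochberg, and calls need a value under 0.05 with a fold change beyond 1 on the log2 scale in either direction. DESeq2 1.42.0, limma-voom 3.58.1, other scalings and filters, 4 libraries only, a replicate block, and leaving out each library were the alternatives. The scripts were tested on simulated data. Named genes are the 12 with the smallest edgeR p in each direction, genes called by DESeq2 with 6 libraries, up to 5 tested genes of each of 50 lists with the smallest p, genes at 0 at 1 temperature, the tagged genes, and strain markers. The comparison and all lists were chosen with earlier results of these data known, and no list was tested. With 2 against 2 libraries an exact permutation test cannot go below p = 0.333. Totals of counts in genes were 184456 to 1006632, and 3 counts in a library equal 2.98 to 16.3 CPM before scaling.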

Additional observations from a re-analysis of the deposited data

How the results depend on the processing

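The count of called genes was 0 in the edgeR fit and stayed 0 with limma-voom, RLE scaling, total counts, no filter, a filter of 10 counts, 4 libraries, and without mitochondrial, non-coding, and ribosomal protein genes. It was 12 with DESeq2, 43 with DESeq2 on 4 libraries, and 15 with DESeq2 at a filtering target of 0.05, which was chosen after seeing the data, and the cause was not tested. Leaving out each library in turn gave 0 to 0 calls, with the smallest adjusted p (edgeR) at 0.114 to 1.00. The replicate numbers are not said to mark a shared batch, and the libraries were taken as unpaired. Across 5181 genes, deviations of same-numbered libraries correlated at −0.40 for 37°C and 30°C. The value was −0.53 for 30°C and 25°C and 0.28 for 37°C and 25°C, so the 30°C numbers ran opposite to both other groups. A replicate block gave 0 calls, with 141 genes higher and 50 lower at an unadjusted p under 0.05. Crossed pairing, with the 30°C numbers swapped, was chosen after seeing the data. It gave 0 calls, with 314 and 198 genes at that cut and a smallest adjusted p (edgeR) of 0.0567. Of 252 named genes tested, 242 kept their sign in every alternative. The others did not, and these are log2 fold changes of 37°C over 30°C. With total counts, ATP6 was 0.085 and HIS3 0.16. As libraries were left out, TRX1 ran from −2.11 to 0.20, ATP6 from −0.48 to 0.14, RIB7 from −0.10 to 0.92, BIO5 from −0.16 to 0.80, CHO1 from −1.51 to 0.18, MFA1 from −2.05 to 0.55, MFA2 from −2.23 to 0.56, YRA1 from −0.74 to 0.16, HIS3 from −0.24 to 0.067, and SAG1 from −0.34 to 0.78. In all of these but ATP6, RIB7, and HIS3 the turn came without the first 30°C replicate. With total counts, which raise all genes by a median of 0.24, the list medians of 40S assembly factors (0.01), iron uptake (0.01), G1 and S phase (0.03), cap and export factors (0.11), the TCA cycle (0.18), and the unfolded protein response (0.23) were positive. At a median standard error of 0.40 (log2), small differences were not detectable at this depth and replication.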

Other observations

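Many yeast enzymes and chaperones exist as a pair of gene copies, one used in fast growth and one known from stress or poor carbon sources. The pairs below were picked after values of several members had been seen, so they are a description with no test. The copy labelled growth was not the higher one at 30°C in every pair. GSY1 had 50 and 42 counts there against 195 and 283 for GSY2, labelled stress. COX5A had 12 and 10 against 122 and 89 for COX5B, labelled stress, so the labels are uncertain in these pairs. Of 18 pairs labelled in this way, 17 had both copies tested. In all 17 the copy labelled stress had a positive and the copy labelled growth a negative log2 fold change in the edgeR fit. The stress copy minus the growth copy had a median of 1.99 on the log2 scale and was above 1 in 16 pairs. With total counts the growth copies TDH3 and SSE1 were positive, with limma-voom GPM1, ENO2, and SOL3 were, and without the first 30°C replicate HXK2, TDH3, GPM1, ENO2, and SOL3 were. SSE1 was also positive without the second 30°C replicate, and GPM1 and ENO2 without the first 37°C replicate and with crossed pairing. The stress copies ENO1 and GPD1 were negative without the second 30°C replicate and without the second 37°C replicate. The order of the copies within a pair held in 17 of 17 pairs under each of these, and the median difference without the first 30°C replicate was 1.69. These settings reuse the libraries from which the pairs were picked, so they give no separate support. Some stress copies had few counts at 30°C, such as GND2 with 15 and 20 at 37°C against 5 and 1. With at least 10 counts required in each of the 4 libraries, 11 pairs remained, with a median difference of 1.99. In hexokinase, HXK1 had 360 and 460 counts at 37°C against 88 and 44 at 30°C, while HXK2 had 216 and 460 against 1331 and 155, with overlap. In glucan synthase, GSC2 had a log2 fold change of 2.58 (SE 0.39) and FKS1, the copy of growing cells, one of −0.32 (SE 0.39). In Hsp90, HSP82 had 3037 and 3384 counts at 37°C against 1134 and 1164 at 30°C, and HSC82 had 2701 and 3224 against 4135 and 2926. In Hsp110, SSE2 had a log2 fold change of 1.28 (SE 0.36) and SSE1 one of −0.19 (SE 0.44). The smallest difference was in enolase, where both ENO1 and ENO2 overlapped between the temperatures. The growth copies HXK2, GPM1, ENO2, and SOL3 were each highest in the first 30°C replicate, and reads that fit both copies of a pair are missing from the counts.

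Genes of meiosis and spore formation are mostly silent in growing cells, and 18 of 24 had too few counts to test. Which genes were tested depended on their 37°C counts, as in SPR28, so no count over them is given. SPR28, a septin of spore formation, had 22 and 22 counts at 37°C against 5 and 1 at 30°C, and ZIP1, of the synaptonemal complex, had 95 and 68 against 44 and 38. The list took 0.0370% and 0.0306% of counts at 37°C against 0.0149% and 0.0174% at 30°C. Position on the genome made little difference: chromosome medians ran from −0.07 to 0.06 on the log2 scale, and the 19 tested genes within 10 kb of a chromosome end had a median of −0.20.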
